A study of Homo sapiens with 24 samples.

Results

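The genes described here were 41 genes of the hypoxia response and of glycolysis, taken from a list of targets of the hypoxia-inducible factors (HIFs) and of enzymes of the glycolytic pathway. They were chosen by name, with earlier results of these data known, from the 60641 gene symbols shared by all libraries. All 41 were listed and passed the filter on low counts in each of the comparisons below, except CA9 where a control was replaced. The RNA of A549 cells, a lung adenocarcinoma line, and of HCT116 cells, a colorectal carcinoma line, had been sequenced before and after CRISPR/Cas9 deletion of the DNA-binding domain (DBD) of a long noncoding transcript named by an MSTRG number. The 24 libraries formed 8 groups of 3: A549 WT B, A549 MSTRG.2513.6 KO, A549 MSTRG.4401.1 KO, HCT116 WT B, HCT116 MSTRG.2513.6 KO, HCT116 MSTRG.4401.1 KO, HCT116 WT A and HCT116 MSTRG.34636.7 KO. The labels of the WT B libraries carry a B and an S number, and those of WT A and the MSTRG.34636.7 KO an A number. The other knockouts carry an S number only, which WT B shares, and are taken here as the series of WT B. The labels name a genotype and no other treatment, no oxygen tension and no clone, and they do not say that the 3 libraries of a group came from separate cultures, so the p-values measure only the spread between these libraries. The levels of the deleted transcripts themselves were not analysed here.

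HIFs are dimers of an oxygen-regulated alpha subunit (HIF1A or EPAS1) and a constant beta subunit. In the presence of oxygen the prolyl hydroxylases EGLN1 and EGLN3 mark the alpha subunit for destruction, so the pathway is set mainly at the protein level, which read counts do not measure. When oxygen falls, the dimer binds short elements near its targets and raises genes for glucose uptake, the glycolytic steps, lactate and proton export, mitochondrial restraint and vessel growth. Many cancer lines run this program to some degree in ordinary culture.

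The letters to which HIF dimers bind have the core ACGTG or GCGTG. Promoter sequences (250 bases before to 50 bases after a transcription start, from RefSeq on GRCh38.p14) were matched by symbol for 37 of the 41 members. VEGFA, BNIP3L, NDRG1 and SLC2A3 had none. Counting both strands and allowing overlaps, either core was present in 75% of the members' 64 promoters and in 48.4% of all 35116 promoters, and ACGTG alone in 45.3% and 21.4%. The promoters below belong to 4 of the 5 genes called lower in the HCT116 MSTRG.4401.1 KO, and 2 of them, CA9 and SLC2A1, were called in a second knockout too. Each is printed 5′ to 3′ in the direction of the gene, with the core on either strand in capitals. A match is a description of the letters and does not show binding.

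CA9 (chr9:35673678-35673977, plus strand): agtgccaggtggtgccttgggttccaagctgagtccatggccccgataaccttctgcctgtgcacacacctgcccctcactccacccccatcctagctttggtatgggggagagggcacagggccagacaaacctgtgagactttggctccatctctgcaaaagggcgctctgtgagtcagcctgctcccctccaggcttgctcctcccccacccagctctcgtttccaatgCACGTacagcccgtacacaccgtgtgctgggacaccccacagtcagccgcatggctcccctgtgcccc
SLC2A1 (chr1:42958819-42959118, minus strand): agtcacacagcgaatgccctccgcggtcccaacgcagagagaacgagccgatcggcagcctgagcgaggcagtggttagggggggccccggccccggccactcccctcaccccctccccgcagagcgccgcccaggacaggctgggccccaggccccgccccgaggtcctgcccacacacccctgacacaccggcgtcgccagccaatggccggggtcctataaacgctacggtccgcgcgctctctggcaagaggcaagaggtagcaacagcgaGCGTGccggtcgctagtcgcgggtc
ANGPTL4 (chr19:8363905-8364204, plus strand): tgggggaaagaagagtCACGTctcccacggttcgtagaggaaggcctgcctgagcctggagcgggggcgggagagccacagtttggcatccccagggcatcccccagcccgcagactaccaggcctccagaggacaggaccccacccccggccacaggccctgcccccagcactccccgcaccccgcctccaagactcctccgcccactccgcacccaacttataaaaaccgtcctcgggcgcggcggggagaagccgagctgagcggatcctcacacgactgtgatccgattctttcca
DDIT4 (chr10:72273674-72273973, plus strand): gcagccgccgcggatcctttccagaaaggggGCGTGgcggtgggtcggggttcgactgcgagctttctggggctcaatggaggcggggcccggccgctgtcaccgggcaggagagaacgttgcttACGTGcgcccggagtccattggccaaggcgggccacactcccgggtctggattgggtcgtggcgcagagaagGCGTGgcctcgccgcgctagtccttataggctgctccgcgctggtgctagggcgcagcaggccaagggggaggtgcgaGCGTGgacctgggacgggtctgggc

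The CA9 core begins 18 bases before the start. The only core in the SLC2A1 window lies after the start, at position 25, that of ANGPTL4 begins 234 bases before the start, and DDIT4 has cores at 219, 125 and 53 bases before it and 1 after it.

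The libraries held 25799359 to 102261808 counts, and 3 counts corresponded to 0.0293 to 0.116 CPM, the count scaled to a common library total. Reads of mitochondrial genes made up 3.50% to 7.87% of the counts in the A549 MSTRG.4401.1 KO, against 1.96% to 2.37% in A549 WT B. Of 10 lung epithelial markers, 3 reached 1 CPM in A549 WT B, led by ABCA3 at 81.1 CPM, and SFTPC was at 0.105 CPM. In HCT116 WT B, 5 of the 10 reached 1 CPM. NKX2-1 stood at 1.27 CPM there against 0.0882 CPM in A549 WT B, and LAMP3 at 4.22 against 0.244 CPM. Between the wild types 6 lung markers were tested, and 1 was called higher and 2 lower in A549. Of 10 intestinal markers, 6 were tested between the wild types, and 3 were called higher and 2 lower in A549. CDX2, an intestinal transcription factor, stood at 18.9 CPM in HCT116 WT B against 0.779 CPM in A549 WT B, CDH17, an intestinal cadherin, at 0.561 against 6.41 CPM, and CDX1 was at 0 in both. In both wild types, most markers of the line's own tissue of origin were below 1 CPM.

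Libraries S8 and S9, placed by their labels in the HCT116 MSTRG.2513.6 KO group, stood apart from their line. Across genes, their correlations of log2 CPM with A549 libraries lay between 0.971 and 0.995, and those with other HCT116 libraries between 0.916 and 0.927. The third library of the group, S11, gave 0.972 to 0.987 with HCT116 libraries. The 17 members called between A549 WT B and HCT116 WT B showed the same, since S8 and S9 lay nearer the A549 mean for 16 of 17 and S11 for 0 of 17. Within A549, 7 members passed an adjusted p of 0.1 in the MSTRG.2513.6 KO, and for 7 of 7 both S8 and S9 lay nearer the A549 MSTRG.2513.6 KO mean than the A549 WT B mean. The labels were kept, and the results of that knockout are given with all 3 libraries and with S11 alone.

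**Figure D1:**
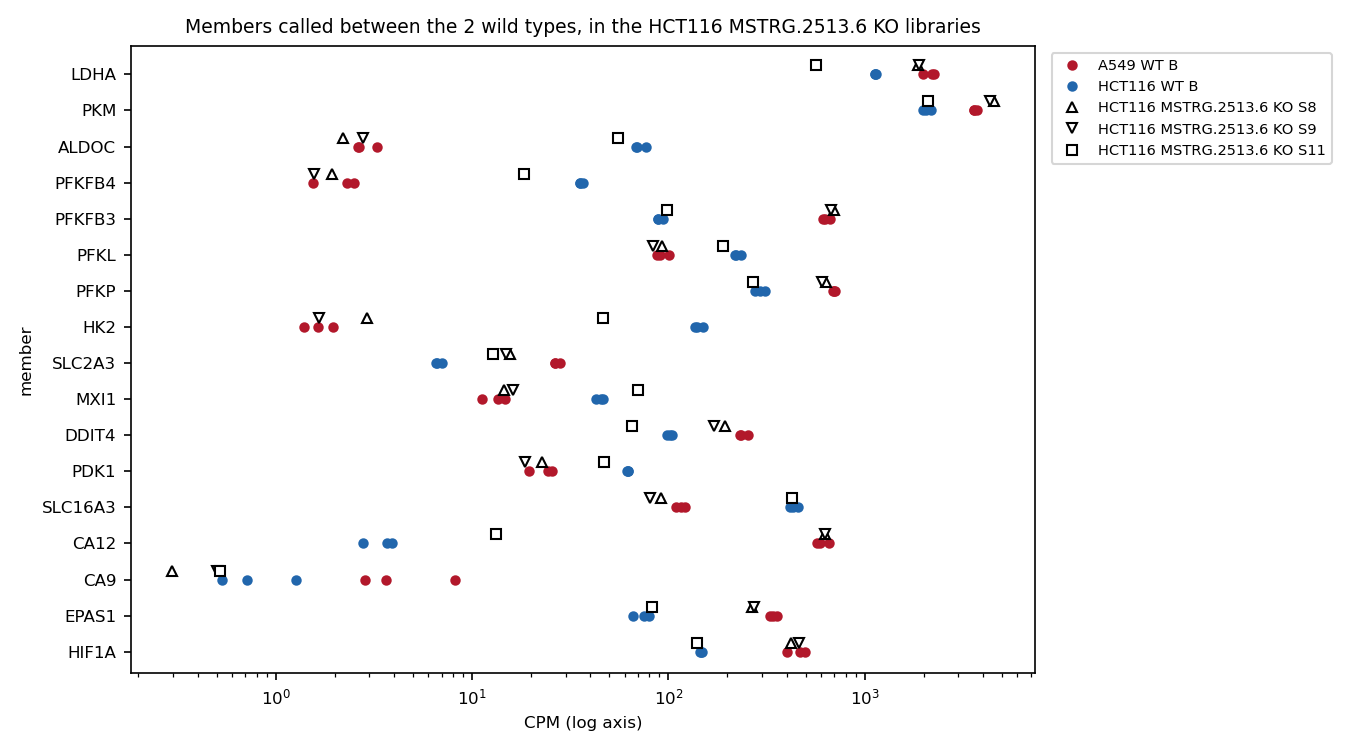
CPM (x axis, log scale) of the 17 members called between the wild types (y axis), with 3 points for each of A549 WT B (red) and HCT116 WT B (blue) and open symbols for the 3 HCT116 MSTRG.2513.6 KO libraries. S8 and S9 (triangles) lie nearer the red points except for CA9, and S11 (squares) nearer the blue points in each row.

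The lines differed in these genes before any knockout. At an adjusted p below 0.1 and an absolute log2 fold change above 1, the rule for a called gene throughout (by the quasi-likelihood test of edgeR, with p adjusted by Benjamini-Hochberg over all genes tested), 10 members were called higher and 7 lower in A549 WT B than in HCT116 WT B. The same rule called 17.2% of all tested genes higher and 18.5% lower. On the adjusted p alone, 23 members were higher and 12 lower, against 31.2% and 31.7% of all genes. The line comparison is confounded with anything else that set the cultures apart.

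Both HIF alpha subunits were higher in A549. HIF1A, the broadly expressed subunit, had 402, 498 and 469 CPM in A549 WT B and 146, 146 and 148 CPM in HCT116 WT B (log2 fold change 1.90 ± 0.07 SE, adjusted p = 5.68e-07). EPAS1, the HIF-2 alpha subunit, had 329, 358 and 342 CPM against 74.8, 80.0 and 66.3 CPM (2.48 ± 0.09, adjusted p = 6.56e-07). The libraries of the lines did not overlap for either gene. Per kilobase of exon, HIF1A exceeded EPAS1 1.73- to 1.97-fold in A549 WT B and 2.58- to 3.16-fold in HCT116 WT B.

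The membrane proteins that handle acid differed in opposite directions. CA12, a cell-surface carbonic anhydrase, had 573, 592 and 660 CPM in A549 WT B and 3.89, 2.77 and 3.71 CPM in HCT116 WT B (7.72 ± 0.14, adjusted p = 4.98e-08). CA9, the other surface anhydrase and a classic hypoxia marker, was low in both, at 2.85, 3.63 and 8.16 CPM in A549 and 0.534, 0.717 and 1.26 CPM in HCT116 (2.76 ± 0.47, adjusted p = 0.00162). SLC16A3, the lactate exporter MCT4, ran the other way, with 116, 110 and 121 CPM in A549 and 457, 418 and 431 CPM in HCT116 (-1.65 ± 0.06, adjusted p = 8.87e-07). CA9 showed the widest spread among libraries of these, and no pair of groups overlapped.

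The balance of isoenzymes at several glycolytic steps differed between the lines. HK2, the hypoxia-induced hexokinase, had 1.97, 1.40 and 1.64 CPM in A549 WT B and 150, 139 and 137 CPM in HCT116 WT B (-6.14 ± 0.16, adjusted p = 1.44e-07), whereas HK1, the housekeeping hexokinase, had 73.8 to 77.1 CPM and 99.0 to 107 CPM. Per kilobase of exon, HK1 exceeded HK2 32.2- to 47.2-fold in A549 WT B and reached 0.612 to 0.624 of HK2 in HCT116 WT B. For PFKFB3 and PFKFB4, which set the fructose 2,6-bisphosphate that drives phosphofructokinase, the ratio per kilobase was 267 to 395 in A549 and 2.40 to 2.63 in HCT116. In A549, PFKFB3 was higher (3.08 ± 0.06, adjusted p = 7.24e-08) and PFKFB4 lower (-3.83 ± 0.19, adjusted p = 2.62e-06).

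The aldolases differed in ALDOC, while ALDOA had 951 to 1294 CPM in A549 WT B and 951 to 1246 CPM in HCT116 WT B. ALDOC had 2.62, 3.28 and 2.65 CPM in A549 WT B and 77.4, 68.7 and 69.0 CPM in HCT116 WT B (-4.39 ± 0.12, adjusted p = 1.73e-07), so that ALDOA, the main aldolase, exceeded it 228- to 334-fold per kilobase in A549 and 9.40- to 12.4-fold in HCT116. PFKP, the platelet-type phosphofructokinase, was higher in A549 (1.52 ± 0.07, adjusted p = 2.51e-06) and PFKL, the liver type, lower (-1.01 ± 0.05, adjusted p = 2.78e-06). The call of PFKL lies just past the fold threshold and was lost without A549 WT B S21 or without HCT116 WT B S12.

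The exit of the pathway was higher in A549. PKM, pyruvate kinase, was higher by 1.08 ± 0.07 and LDHA, the lactate dehydrogenase subunit that makes lactate, by 1.18 ± 0.06 on the log2 scale (adjusted p = 1.26e-05 and 3.63e-06). DDIT4, an inhibitor of mTOR signalling, was higher by 1.498 ± 0.06 and SLC2A3, the glucose transporter GLUT3, by 2.26 ± 0.09 (adjusted p = 7.36e-07 and 9.00e-07). PDK1, which blocks entry of pyruvate into mitochondria, was lower by -1.16 ± 0.08 and MXI1, an antagonist of MYC, by -1.51 ± 0.10 (adjusted p = 1.85e-05 and 1.00e-05). Per kilobase, GAPDH had the highest level of the 41 in both wild types, at 1566 ± 21.4 and 1764 ± 40.5 CPM per kilobase (SD, n = 3), followed by ENO1. The lowest were HK2 in A549 WT B at 0.282 ± 0.0487 and CA12 in HCT116 WT B at 0.494 ± 0.0856. CA12 and CA9, at 0.525 ± 0.238, did not differ beyond their spread in HCT116 WT B.

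**Figure D2:**
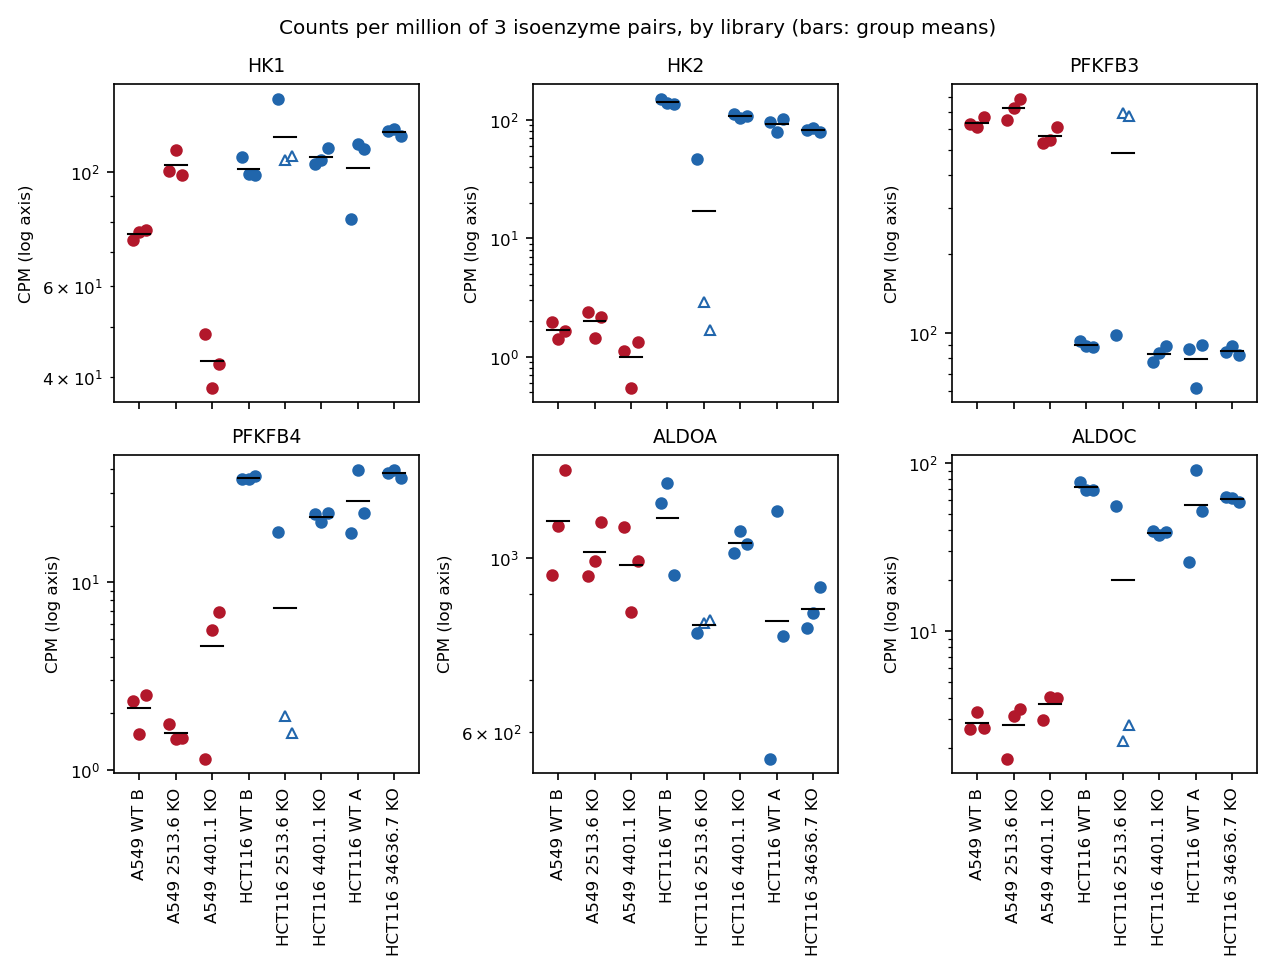
CPM (log scale) of HK1, HK2, PFKFB3, PFKFB4, ALDOA and ALDOC in each library of the 8 groups (red A549, blue HCT116, open triangles S8 and S9, bars group means). HK2 is at 1.40 to 1.97 CPM in A549 WT B and 137 to 150 CPM in HCT116 WT B, and S8 and S9 lie at 2.90 and 1.67 CPM.

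Across the 5 knockout comparisons, 35 of the 41 members were called in none, 3 in 1 and 3 in 2. This tally was not made over all genes, so it does not set the members apart, and shares over all genes are given by comparison below. The 6 called were CA9, SLC2A1, SLC2A3, ANGPTL4, DDIT4 and SLC16A3, when S8 and S9 are kept. With S11 alone in that group, 31 members were called in none, 6 in 1, 3 in 2 and 1, SLC2A1, in 3, and CA12, HK2, PFKFB4 and LDHA joined the called genes. SLC2A3 was called in opposite directions in the MSTRG.4401.1 KO of the lines. In GENCODE v44 on GRCh38, CA9 lies at chr9:35673928-35681159 and overlaps the opposite-strand gene ARHGEF39. SLC2A1 lies at chr1:42925353-42958893, SLC2A3 at chr12:7919230-8019007, ANGPTL4 at chr19:8363289-8374370 and DDIT4 at chr10:72273919-72276036, and SLC16A3 at chr17:82217934-82261129 overlaps the opposite-strand gene CSNK1D. Whether counting used the strand is not given in the sources used here, so reads of such pairs may not be told apart. Since the RNA was extracted in bulk, fewer cells expressing a gene and less RNA per cell cannot be told apart in any of the results.

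**Figure D3:**
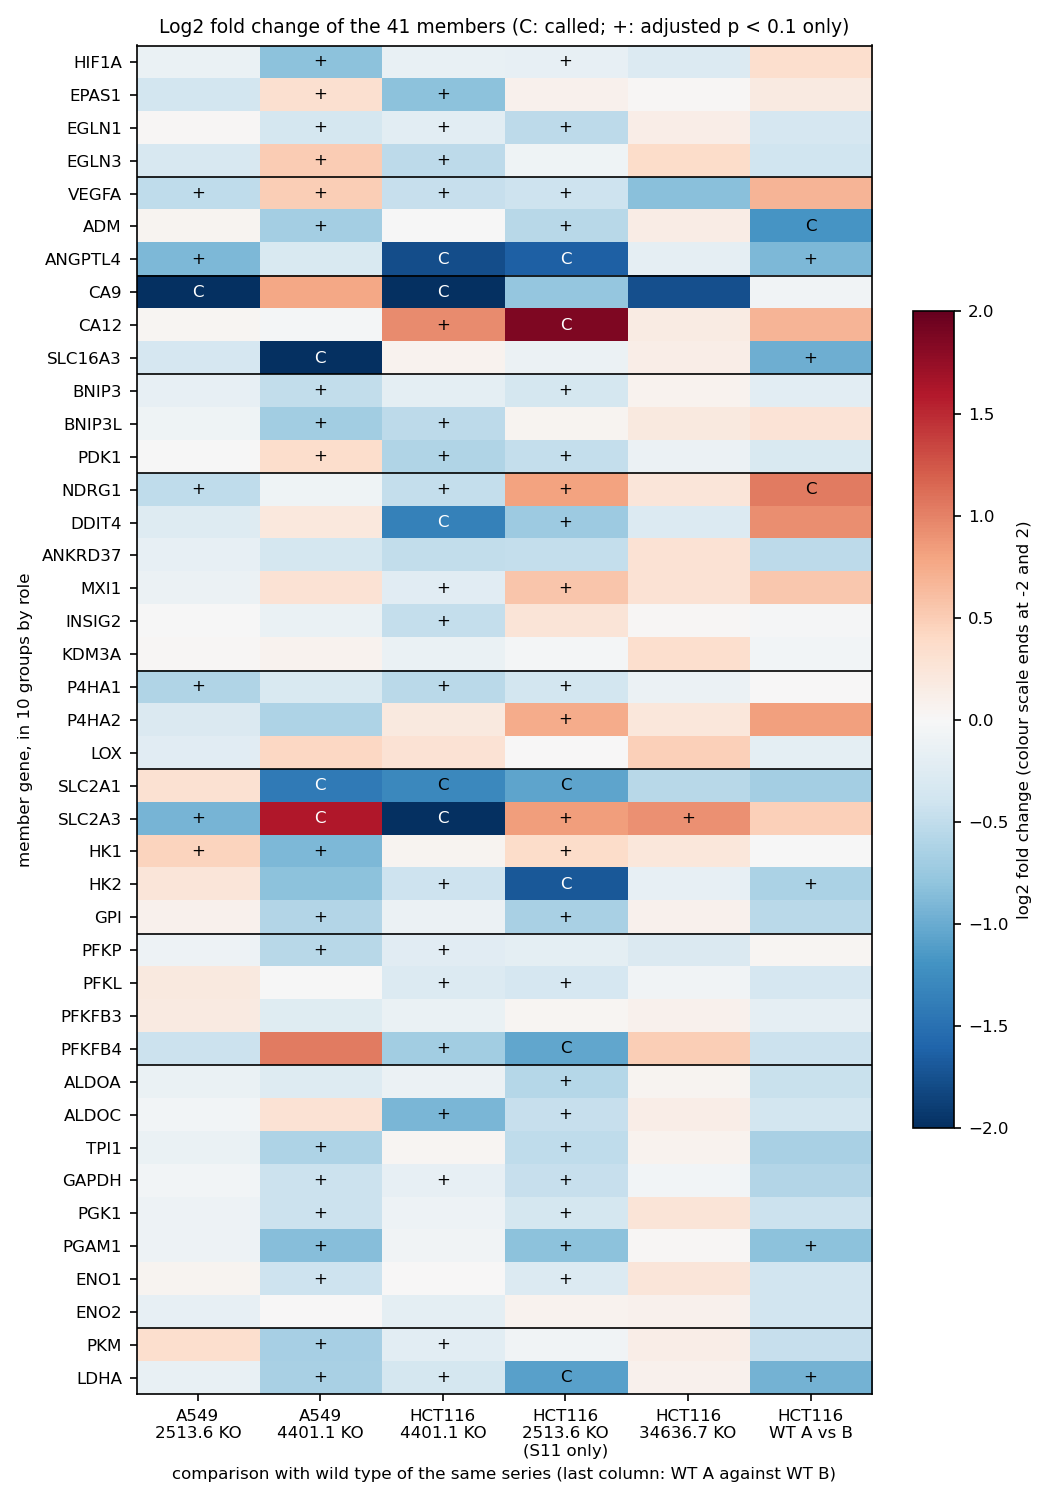
Log2 fold change (colour, ending at -2 and 2) of the 41 members, in rows grouped by role, in 6 comparisons in columns; C marks a called member and + an adjusted p below 0.1 alone. The HCT116 MSTRG.4401.1 KO column holds 24 marked members, 23 of them lower, the A549 MSTRG.2513.6 KO column 7, and the HCT116 MSTRG.34636.7 KO column 1.

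In A549, the MSTRG.2513.6 KO lowered 1 member past both thresholds, and 6 members were lower on the adjusted p alone. CA9 was the called gene, and ANGPTL4, SLC2A3, VEGFA, NDRG1 and P4HA1 were the others. HK1 was the only member higher on the adjusted p alone. Among all genes, 1.13% were called higher and 1.79% lower, and 2.77% and 3.19% passed the adjusted p alone.

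CA9 had 0.250, 0.419 and 0.428 CPM in the KO (16, 24 and 20 counts) and 2.85, 3.63 and 8.16 CPM in A549 WT B (168, 216 and 339 counts). All 3 KO libraries lay below the lowest wild type, and CA9 fell by 3.71 on the log2 scale (SE 0.44, adjusted p = 0.00472). ARHGEF39, which overlaps it, held 1893 to 2377 counts in these KO libraries, far more than CA9.

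ANGPTL4, a secreted regulator of lipoprotein lipase, had 14.2, 18.9 and 18.2 CPM against 28.9, 30.3 and 36.4 CPM (-0.90 ± 0.14, adjusted p = 0.0145). SLC2A3 had 14.4, 14.8 and 13.2 CPM against 26.3, 26.4 and 27.9 CPM (-0.93 ± 0.12, adjusted p = 0.00712). VEGFA, the vessel growth factor, had 31.0, 32.4 and 39.3 CPM against 44.3, 48.1 and 53.003 CPM (-0.50 ± 0.11, adjusted p = 0.0491). The groups did not overlap for these 3 genes, and each change was below the fold threshold. NDRG1, a stress-induced gene, changed by -0.51 ± 0.09 and P4HA1, a collagen prolyl hydroxylase subunit, by -0.60 ± 0.14 (adjusted p = 0.0217 and 0.0669), while HK1 rose by 0.45 ± 0.10 (adjusted p = 0.0508).

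Neither alpha subunit passed the test in this knockout. HIF1A had 520, 439 and 272 CPM in the KO against 402, 498 and 469 CPM, overlapping groups with a log2 fold change of -0.14 ± 0.23 (adjusted p = 0.825), and EPAS1 had 286, 279 and 235 CPM against 329, 358 and 342 CPM (-0.36 ± 0.12, adjusted p = 0.176). SLC2A1, the main glucose transporter GLUT1, had 335, 369 and 358 CPM against 270, 285 and 307 CPM (0.30 ± 0.09, adjusted p = 0.120), and LDHA had a log2 fold change of -0.15 ± 0.14 (adjusted p = 0.673). None of the 8 genes from aldolase to enolase passed, with values between -0.16 and 0.06. The members' median was -0.11 against -0.030 over all genes. Leaving out each library in turn kept CA9 as the single call in 6 of 6 fits, with 3 to 7 members lower on the adjusted p.

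The MSTRG.4401.1 KO of A549 lowered several glycolytic enzymes by modest amounts and moved the glucose transporters SLC2A1 and SLC2A3 in opposite directions. On the adjusted p alone, 17 members were lower and 5 higher, of which 2 lower and 1 higher were called. Over all genes, 22.4% were lower and 21.3% higher on the adjusted p, and 4.32% and 11.1% were called. The members' median was -0.31, against 0.12 over all genes. This group also carried the highest mitochondrial share and the smallest libraries of the series, and the part of these in the result was not tested.

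SLC2A1 had 122, 101 and 118 CPM in the KO and 270, 285 and 307 CPM in A549 WT B, and fell by 1.415 on the log2 scale (SE 0.11, adjusted p = 0.000134). SLC2A3 had 79.8, 84.3 and 95.1 CPM against 26.3, 26.4 and 27.9 CPM, and rose by 1.61 (SE 0.12, adjusted p = 0.000106). Neither transporter's groups overlapped. Per kilobase of exon, SLC2A1 exceeded SLC2A3 11.2- to 12.1-fold in A549 WT B, 25.6- to 29.8-fold in the MSTRG.2513.6 KO and 1.31- to 1.68-fold in the MSTRG.4401.1 KO. Copies close in sequence to SLC2A3 held few reads here: SLC2A14 reached 2.62 CPM and the pseudogene SLC2A3P4 3.26 CPM in this KO.

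SLC16A3 showed the strongest decrease of a member in this knockout. It had 23.5, 24.4 and 24.96 CPM against 116, 110 and 121 CPM, and fell by 2.33 (SE 0.10, adjusted p = 8.92e-06). Every KO library lay below every wild type library by a wide margin. CSNK1D, on the other strand at the same place, stood at 171 to 207 CPM in the KO and 194 to 219 CPM in WT B.

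No glycolytic enzyme was called, and those past the adjusted p were lower. Of the 8 genes from aldolase to enolase, 5 were lower on the adjusted p: TPI1 (-0.62 ± 0.14), GAPDH (-0.43 ± 0.16), PGK1 (-0.43 ± 0.14), PGAM1 (-0.85 ± 0.15) and ENO1 (-0.42 ± 0.16). The aldolases and ENO2 did not pass, with ALDOC at 0.28 ± 0.24, nor did PFKFB4 (1.04 ± 0.56, adjusted p = 0.180) or PFKL (-0.014 ± 0.11, adjusted p = 0.931). HK1 fell from 73.8 to 77.1 CPM in WT B to 48.5, 38.1 and 42.3 CPM (-0.90 ± 0.11, adjusted p = 0.00107). GPI, which follows hexokinase, and PFKP had -0.59 ± 0.13 and -0.56 ± 0.12 (adjusted p = 0.0115 and 0.00826). At the exit, PKM had 2654, 2100 and 2534 CPM against 3587, 3617 and 3742 CPM (-0.67 ± 0.15, adjusted p = 0.0114), and LDHA had 1638, 1163 and 1513 CPM against 1993, 2249 and 2189 CPM (-0.65 ± 0.16, adjusted p = 0.0152). These KO libraries lay below the wild type ones for PKM and LDHA.

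The regulators split. HIF1A had 348, 231 and 240 CPM in the KO and fell by 0.82 (SE 0.16, adjusted p = 0.00642), and EPAS1 had 469, 411 and 473 CPM and rose by 0.32 (SE 0.11, adjusted p = 0.0625), which brought HIF1A to 0.717 to 1.05 of EPAS1 per kilobase. EGLN3 rose by 0.51 ± 0.16 and EGLN1 fell by 0.35 on the log2 scale (adjusted p = 0.0381 and 0.0569). Among targets, VEGFA had 71.9, 71.9 and 72.7 CPM and rose by 0.50 ± 0.09 (adjusted p = 0.00559) and PDK1 rose by 0.36 ± 0.12 (adjusted p = 0.0496), while ADM, the vasodilator peptide adrenomedullin, BNIP3 and BNIP3L, receptors for mitophagy, had -0.69 ± 0.11, -0.49 ± 0.11 and -0.70 ± 0.11. CA9 had 9.03, 4.26 and 12.3 CPM, overlapping A549 WT B (0.77 ± 0.45, adjusted p = 0.214).

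The scaling of the libraries moved these values together with those of all genes. With upper-quartile scaling the median over all genes moved to 0.28 and that of the members to -0.15, and with DESeq2's size factors, over the same genes, to 0.0058 and -0.42. The called genes were higher in 71.9% of cases with TMM, 58.0% with DESeq2 and 83.1% with the upper quartile. The number of members lower on the adjusted p was 17, 21 and 13 with TMM, DESeq2 and the upper quartile, and the 3 calls remained in each of 6 fits leaving out a library. Without S23 the called members numbered 6.

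In HCT116, the MSTRG.4401.1 KO lowered 23 of the 41 members on the adjusted p and raised 1. The member that rose was CA12, and over all genes 8.72% were lower and 7.57% higher by the same measure. Called lower were 5 members, ANGPTL4, CA9, DDIT4, SLC2A1 and SLC2A3, and 0 were called higher, against 1.62% and 0.996% of all genes. DESeq2 called 0 higher too, and 1 member was higher at an unadjusted p below 0.05. The median was -0.22, against 0.0034 over all genes.

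SLC2A1 had 186, 173 and 180 CPM in the KO and 459, 426 and 427 CPM in HCT116 WT B, and fell by 1.296 (SE 0.05, adjusted p = 1.30e-05). SLC2A3 had 0.949, 1.08 and 0.930 CPM (49, 46 and 45 counts) against 7.06, 6.61 and 6.57 CPM (370, 424 and 395 counts), and fell by 2.79 (SE 0.14, adjusted p = 7.09e-05). Both glucose transporters were thus lower, with no overlap. In these libraries the pseudogene SLC2A3P4 held 1.78 to 4.85 CPM in the KO and 3.37 to 3.80 CPM in WT B, more than SLC2A3 itself in the KO. The level of SLC2A3 may therefore depend on how any shared reads were assigned, which was not tested.

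DDIT4 had 40.6, 41.5 and 38.7 CPM against 101, 105 and 99.0 CPM and fell by 1.35 (SE 0.06, adjusted p = 2.21e-05). ANGPTL4 had 8.43, 7.29 and 7.29 CPM against 27.1, 25.2 and 25.9 CPM and fell by 1.77 (SE 0.10, adjusted p = 8.02e-05). For both, the KO libraries lay close together and below every wild type library. CA9 was read from 5, 4 and 0 counts in the KO and 28, 46 and 76 counts in WT B, which gave a fitted log2 fold change of -3.69 ± 0.74 (adjusted p = 0.0189) whose size depends on the handling of counts this low. Its antisense neighbour ARHGEF39 held 1719 to 2164 counts in the same KO libraries.

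Among the remaining members, the changes were below the fold threshold. EPAS1 had 39.9, 43.7 and 42.97 CPM against 74.8, 80.0 and 66.3 CPM (-0.82 ± 0.08, adjusted p = 0.000807), whereas HIF1A had 143, 129 and 127 CPM against 146, 146 and 148 CPM (-0.15 ± 0.06, adjusted p = 0.164). VEGFA had 68.9, 68.2 and 65.4 CPM against 96.9, 91.1 and 89.6 CPM (-0.47 ± 0.05, adjusted p = 0.00153). LDHA had 885, 927 and 868 CPM against 1139, 1134 and 1128 CPM (-0.36 ± 0.05, adjusted p = 0.00296). The KO libraries were below the wild type ones for all 4 genes. CA12 rose from 2.77 to 3.89 CPM in WT B to 6.40 to 7.25 CPM (0.95 ± 0.16, adjusted p = 0.00980).

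By role, 3 of the 4 oxygen-sensing genes, 4 of the 6 stress and signalling targets, and 3 of the 4 genes of the phosphofructokinase step were lower on the adjusted p. From aldolase to enolase 2 of 8 were, ALDOC (-0.91 ± 0.06) and GAPDH (-0.17 ± 0.05). PDK1 and BNIP3L, among the mitochondrial targets, had -0.60 ± 0.05 and -0.53 ± 0.06, and PFKFB4 and HK2 had -0.69 ± 0.07 and -0.41 ± 0.05. Leaving out each library in turn left 20 to 24 members lower and all 5 calls in place in 6 of 6 fits.

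The choice of wild type changed this picture. Against HCT116 WT A in place of WT B, 10 of 40 tested members were lower and 4 higher on the adjusted p, and the members' median was 0.0089. Over all genes, 9.71% were lower and 9.18% higher on the adjusted p, and the median was -0.023. Called lower were DDIT4 (-2.28), SLC2A3 (-3.27), NDRG1 (-1.53), VEGFA (-1.15) and EPAS1 (-1.002), and called higher were ADM (1.16) and SLC16A3 (1.05). The share of all genes called against WT A was not counted, so these calls do not set the members apart. CA9 did not pass the filter on low counts in this comparison, whereas ANGPTL4 was at -0.88 and SLC2A1 at -0.63, below the threshold, and LDHA changed sign to 0.57 (adjusted p = 0.188). The WT A libraries belong to the other library series, so the knockout and the series cannot be told apart in that comparison.

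**Figure D4:**
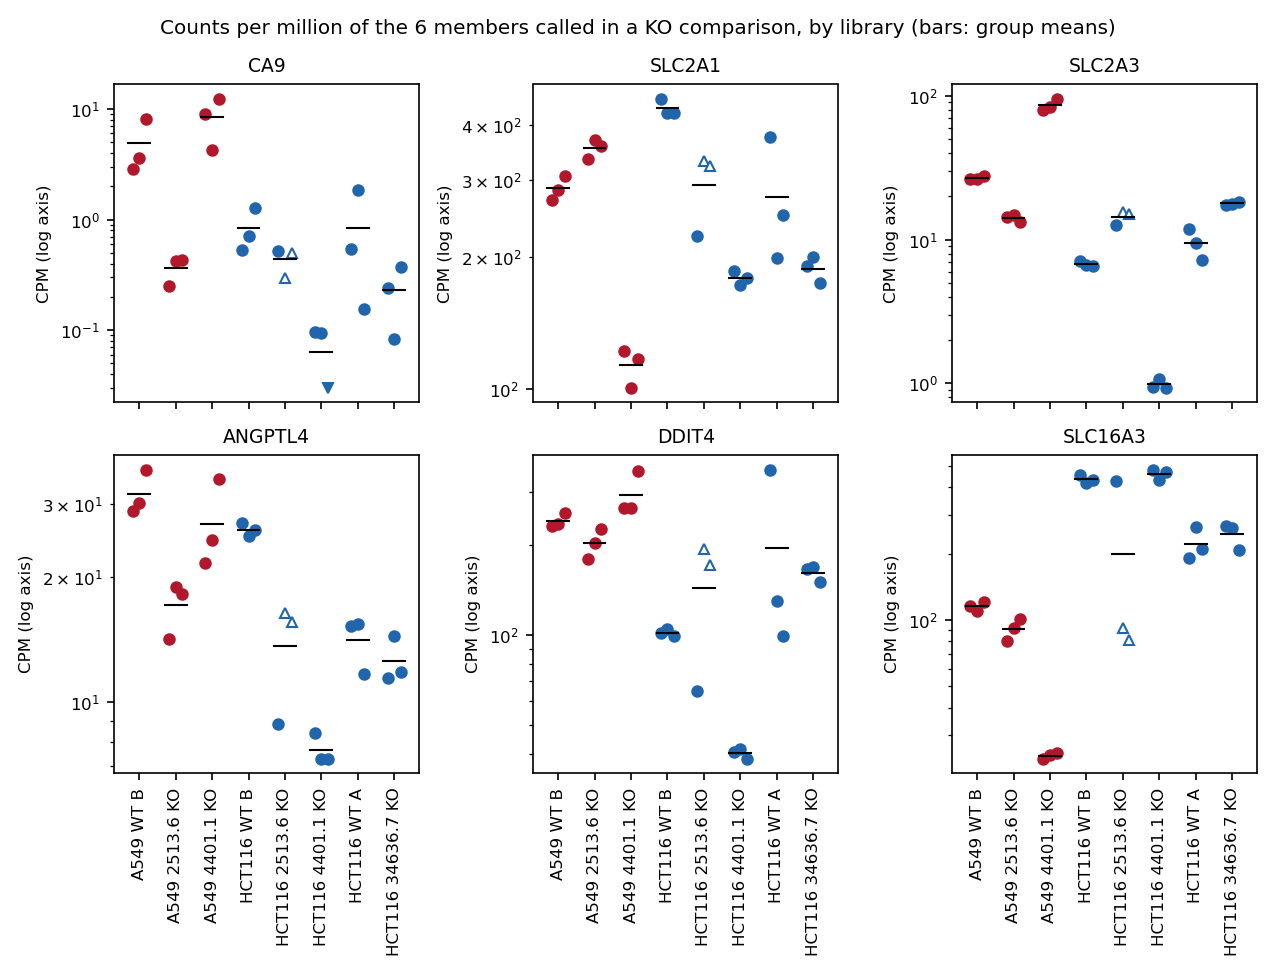
CPM (log scale) of the 6 members called in a knockout comparison, in each library of the 8 groups (red A549, blue HCT116, open triangles S8 and S9, bars group means, a downward triangle 0 counts drawn at the bottom of the axis). SLC2A1 lies at 101 to 122 CPM in the A549 MSTRG.4401.1 KO and at 173 to 186 CPM in the HCT116 MSTRG.4401.1 KO, below the WT B libraries of each line.

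The MSTRG.4401.1 KO was made in both lines, and the difference between its effects was tested as an interaction over 12 libraries. It was past both thresholds for 10 members, 8 of them more positive in A549, where 11.4% of all genes passed. Of all genes past both thresholds, 65.1% were more positive in A549. On the adjusted p alone 7 members were lower in both lines (EGLN1, BNIP3L, SLC2A1, PFKP, GAPDH, PKM and LDHA), 5 were higher in A549 and lower in HCT116 (EPAS1, EGLN3, VEGFA, PDK1 and SLC2A3), and 0 were higher in both. The same counts over all genes were not made, so these numbers do not set the members apart. The knockouts have separate controls.

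SLC2A3 differed by 4.36 ± 0.16 on the log2 scale (A549 minus HCT116, adjusted p = 2.34e-08). CA9 differed by 4.43 ± 0.92 with a larger error (adjusted p = 0.00599), and DDIT4 by 1.53 ± 0.17 (adjusted p = 0.000142). SLC16A3, which fell in A549 and had 481, 434 and 470 CPM in the HCT116 KO against 457, 418 and 431 CPM, differed by -2.44 ± 0.11 (adjusted p = 1.99e-07). SLC2A1 fell in both lines, and its difference of -0.15 ± 0.13 did not pass (adjusted p = 0.454), nor did that of LDHA, -0.33 ± 0.17 (adjusted p = 0.217).

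**Figure D5:**
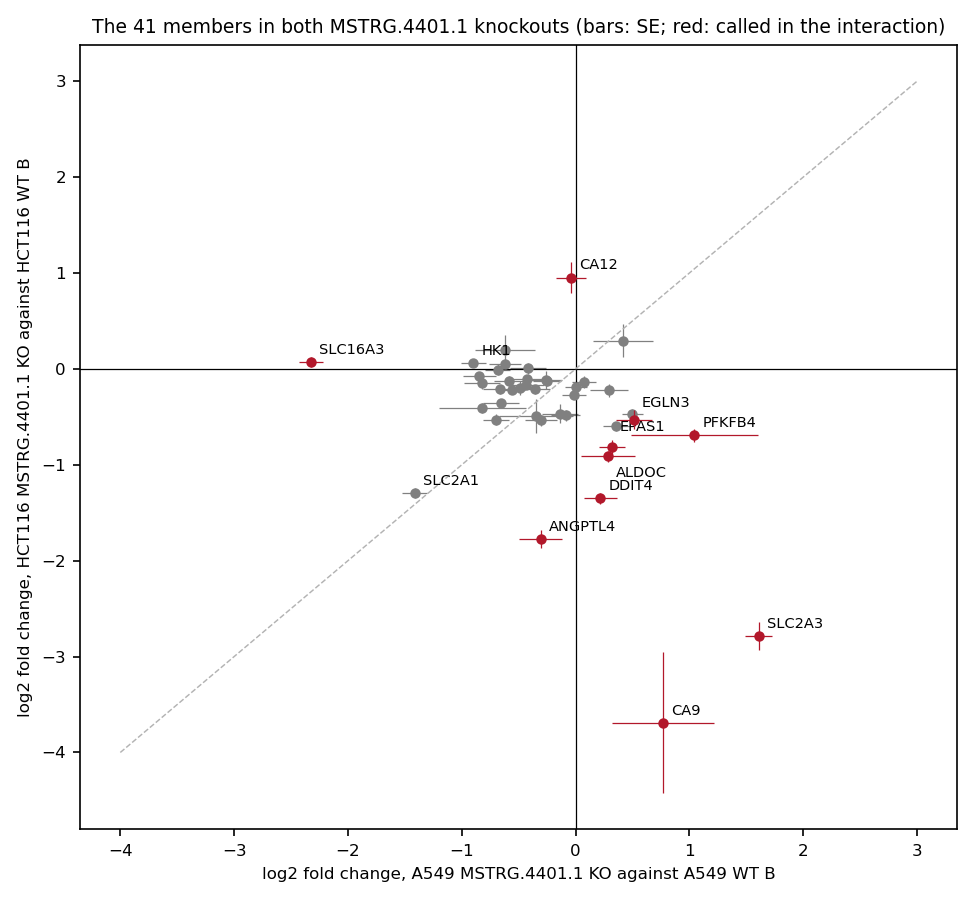
Log2 fold change of the 41 members in the A549 MSTRG.4401.1 KO (x axis) and the HCT116 MSTRG.4401.1 KO (y axis), each against WT B of its line, with SE bars; red members were called in the interaction and the dashed line marks equal change. SLC2A1 lies near the line at -1.415 and -1.296, and SLC2A3 far from it at 1.61 and -2.79.

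The HCT116 MSTRG.2513.6 KO gave no called member with its 3 labelled libraries, and 0 members passed the adjusted p. At an unadjusted p below 0.05 there were 15, and the share of all genes at that level was not counted. DESeq2 called 6 and upper-quartile scaling 1. On the adjusted p alone, DESeq2 gave 7 members higher and 5 lower, and 8.31% and 3.30% of all genes with a count. In the main fit, 0.66% of all genes were called higher and 0.273% lower, and 0.792% and 0.629% passed the adjusted p alone. The 2 libraries that resemble A549 spread the group: HIF1A had 139 CPM in S11 and 421 and 464 CPM in S8 and S9 (1.504 ± 0.54, adjusted p = 0.199), and EPAS1 had 83.0, 266 and 274 CPM (1.78 ± 0.55, adjusted p = 0.162). VEGFA had 73.3 CPM in S11 and 29.7 and 32.8 CPM in the others (-0.91 ± 0.25, adjusted p = 0.147), and LDHA 565, 1869 and 1889 CPM (0.63 ± 0.54, adjusted p = 0.557). CA9 had 0.523, 0.297 and 0.501 CPM (-0.75 ± 0.45, adjusted p = 0.405), and SLC2A1 224, 332 and 323 CPM (-0.34 ± 0.28, adjusted p = 0.533).

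Without S8 and S9, S11 alone was set against the 3 HCT116 WT B libraries, with the spread taken from the wild type and S11 assumed to vary like it. Then 5 members were called lower and 1 higher, where 3.49% and 5.2% of all genes were. HK2 had 46.5 CPM in S11 against 137 to 150 CPM (-1.70 ± 0.07, adjusted p = 0.000515), and ANGPTL4 8.86 CPM against 25.2 to 27.1 CPM (-1.64 ± 0.11, adjusted p = 0.000953). LDHA, SLC2A1 and PFKFB4 had -1.09 ± 0.05, -1.05 ± 0.06 and -1.05 ± 0.09, and CA12 had 13.3 CPM against 2.77 to 3.89 CPM (1.86 ± 0.22, adjusted p = 0.00396). EPAS1 was at 0.085 ± 0.12, VEGFA at -0.42 ± 0.07 and CA9 at -0.77 ± 0.63 (adjusted p = 0.662, 0.00929 and 0.450). The members' median was -0.35 against 0.013 over all genes. These values describe a single library, and HIF1A (-0.16 ± 0.05) and LDHA changed sign relative to the fit with 3 libraries.

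In the test of a different MSTRG.2513.6 KO effect between the lines, 4 members were called, EPAS1, CA9, CA12 and SLC2A3, all more negative in A549, where 7.95% of all genes were called. That direction was the common one, since 2104 of all genes called were more negative in A549 and 269 more positive. Without S8 and S9 the HCT116 KO is the single library S11, so only differences are given. In that fit EPAS1 was at -0.45, and CA12 moved from -7.18 to -1.83. CA9 was at -2.93 with S8 and S9 and at -2.95 without them, the latter with 19 counts in S11. SLC2A3 was at -2.22 and -1.76. With S11 alone, NDRG1 was at -1.31, HK2 at 1.94 and SLC2A1 at 1.35. When single libraries were left out of the fit with all 3, the call of EPAS1 was lost in 11 of 12 fits, that of CA9 in 5 and that of CA12 in 1. In the HCT116 MSTRG.2513.6 KO libraries the pseudogene SLC2A3P1 held 0.621 to 11.5 CPM and SLC2A3 12.7 to 15.6 CPM. The level of SLC2A3 there may therefore depend on how shared reads were assigned, which was not tested.

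The HCT116 MSTRG.34636.7 KO, the sole knockout of the A series, gave 0 called members against HCT116 WT A, and 1 passed the adjusted p alone. DESeq2 called 0 as well, and 4 members had an unadjusted p below 0.05. Called in this comparison were 0.729% of all genes higher and 0.607% lower, and 1.18% and 0.972% passed the adjusted p. SLC2A3 was the member that passed, with 17.5, 17.7 and 18.3 CPM against 11.9, 9.41 and 7.16 CPM (0.91 ± 0.20, adjusted p = 0.0915). Every KO library lay above every wild type library, but the adjusted p was 0.1101 with upper-quartile scaling, 0.103 without a filter and 0.171 with the replicate number as a block, and it missed the threshold in 5 of 6 fits leaving out a library.

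HCT116 WT A was the more variable group of the comparison. VEGFA had 86.7, 85.6 and 79.3 CPM in the KO and 237, 127 and 84.4 CPM in WT A (-0.84 ± 0.32, adjusted p = 0.279). SLC2A1 had 191, 200 and 174 CPM against 375, 199 and 250 CPM (-0.56 ± 0.23, adjusted p = 0.305), and LDHA 629, 643 and 620 CPM against 362, 799 and 631 CPM (0.08 ± 0.25, adjusted p = 0.915). The groups overlapped for all 3, and WT A 1A was the extreme library in each. HIF1A (-0.28 ± 0.13), EPAS1 (0.020 ± 0.24) and CA9 (-1.75 ± 0.85, from 22, 5 and 35 counts against 29, 90 and 16) did not pass either (adjusted p = 0.369, 0.979 and 0.377). Against WT B instead, 7 members were called and SLC2A1 was at -1.24 and LDHA at -0.87, with the series confounded. The share of all genes called there was not counted, so the 7 do not set the members apart. On the adjusted p alone 9 members were higher and 23 lower against WT B, where 22.98% and 22.88% of all genes were.

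The wild types of HCT116 differed from each other. WT A against WT B gave 1 member called higher, NDRG1, and 1 lower, ADM, against 3.16% and 3.9% of all genes, and 1 and 6 members on the adjusted p alone, against 5.56% and 6.71%. NDRG1 had 253, 296 and 140 CPM in WT A and 111, 113 and 106 CPM in WT B (1.04 ± 0.23, adjusted p = 0.0315). ADM had 13.3, 44.2 and 22.2 CPM against 62.1, 60.3 and 54.2 CPM (-1.17 ± 0.36, adjusted p = 0.0966). The groups did not overlap for either gene. Each call was lost in 5 of 6 fits that left out a library; NDRG1 was lost without 1A or 2A of WT A or without any 1 of the 3 WT B libraries, and ADM without 1A or 3A of WT A or without any 1 of the WT B libraries.

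The remaining 5 were lower in WT A on the adjusted p. SLC16A3 had 191, 265 and 211 CPM against 418 to 457 CPM (-0.98 ± 0.14, adjusted p = 0.00390), and LDHA, ANGPTL4, PGAM1 and HK2 had -0.94 ± 0.26, -0.90 ± 0.14, -0.82 ± 0.20 and -0.63 ± 0.15. The members' median was -0.33 against 0.025 over all genes. The members' median was -0.22 in the HCT116 MSTRG.4401.1 KO, which shares the WT B libraries with this comparison. The library series, the culture and any date cannot be told apart in it.

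Of the 41 members, 7 passed the adjusted p in none of the 5 knockout comparisons: ANKRD37, an ankyrin-repeat protein, KDM3A, a histone demethylase, P4HA2, the partner isoenzyme of P4HA1, LOX, a collagen crosslinking oxidase, PFKFB3, ALDOA and ENO2, the neuronal enolase. The share of all genes that passed in none was not counted. ANKRD37 and LOX were low throughout, at 1.22 to 5.80 CPM and 2.27 to 6.44 CPM over the 24 libraries, and ENO2 lay between 47.99 and 94.6 CPM. PFKFB3, in contrast, spanned 61.6 to 784 CPM, higher in A549 WT B than in HCT116 WT B, with knockout log2 fold changes of -0.25 to 2.75, the highest in the HCT116 MSTRG.2513.6 KO with S8 and S9. With S11 alone in its group, P4HA2 (0.74, adjusted p = 0.0192) and ALDOA (-0.57, adjusted p = 0.0539) passed there, PFKFB3 was at 0.035, and 5 members were left. They are not shown to be unaffected, since a p that misses the threshold leaves changes possible.

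Further genes of the pathway, outside the 41, were counted from lists of 13 HIF pathway regulators, 36 other HIF targets and 41 other genes of glycolysis and pyruvate use. These lists too were chosen with earlier results of these data known, so their counts are not independent of the data. In the HCT116 MSTRG.4401.1 KO, 16 of 33 tested targets were lower and 2 higher on the adjusted p, while 0 of 13 regulators were lower and 1 was higher, and 2 of 33 glycolysis and pyruvate genes were lower and 6 higher, where 8.72% of all genes were lower and 7.57% higher. In the A549 MSTRG.4401.1 KO, 13 of 32 targets, 7 of 12 regulators and 14 of 30 glycolysis and pyruvate genes were lower, and 6, 0 and 3 higher, where 22.4% of all genes were lower and 21.3% higher. Calls there included STC1 (-3.50), a calcium-regulating hormone, PDK4 (2.42), a pyruvate dehydrogenase kinase, and CAV1 (-1.94), a caveolar coat protein. The A549 MSTRG.2513.6 KO gave 5 of 34 targets lower and 3 higher, where 3.19% of all genes were lower and 2.77% higher. SLC16A7, a monocarboxylate transporter, was at -5.78 and PDK4 at -3.31, against 1.80 and 2.42 in the A549 MSTRG.4401.1 KO, which shares its controls. NRN1 (3.42), a neurite-promoting protein, and STC2 (1.36), a stanniocalcin, were higher. SLC16A7 and NRN1 were low, with means of 0.0522 and 0.649 CPM in the A549 MSTRG.2513.6 KO against 3.31 and 0.0604 CPM in A549 WT B. In the HCT116 MSTRG.4401.1 KO the calls were SLC2A2 (2.50), the liver glucose transporter, IGFBP3 (-1.46), a growth factor binding protein, and HKDC1 (-1.27), a hexokinase-like enzyme. The HCT116 MSTRG.34636.7 KO gave 2 of 34 targets higher and 0 lower, where 1.18% of all genes were higher and 0.972% lower.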

How the data were processed

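The authors trimmed reads with Trim Galore 0.6.6, checked them with FastQC 0.11.9 and aligned them to hg38 with HISAT2 2.2.1, per the labels. The deposited values were whole-number counts per gene symbol and library, not normalized and not pooled; the annotation release and the use of strand in counting are not given in the sources used here. 60641 symbols were shared by all libraries, 3 listed only in some were left out, and no row lacked a symbol.

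Each comparison was fitted on all its genes with edgeR 4.0.16 (limma 3.58.1, R 4.3.3): TMM normalization, filterByExpr, glmQLFit and glmQLFTest, Benjamini-Hochberg adjustment, with a gene called at FDR < 0.1 and |log2 fold change| > 1. Values in the text are CPM of the library total without TMM. Errors of log2 fold changes are SEs, and those of levels SDs over 3 libraries. Exact permutation of 3 against 3 cannot go below p = 0.1, so it was not used. The code was tested on simulated data. Gene positions and exon lengths came from GENCODE v44. Exon length is the union of annotated exons, which need not be the transcript expressed. 23 members overlap a gene on the opposite strand, 21 a gene on the same strand, and 14 have pseudogenes listed under their name, so their counts can share reads.

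The members and the lists of other genes were chosen with earlier results of these data known. Named in each comparison was every called member and, in the knockouts, HIF1A, EPAS1, VEGFA, CA9, SLC2A1 and LDHA; members named beyond that were chosen after their values were seen. From the lists outside the members, at most 4 called genes with the largest change were named, leaving out an item that is not reported here. The comparisons with the wild type B of a line share their control libraries. Alternatives were DESeq2 1.42.0, upper-quartile scaling, no filter, FDR < 0.05, no fold threshold, the other HCT116 wild type, leaving out S8 and S9 or each library, and a replicate block. Replicate libraries differed by more than sampling noise, and, with no molecular identifiers, counting intervals would cover counting error only.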

Additional observations from a re-analysis of the deposited data

Results flagged for a closer look

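The effect of a knockout differed between A549 and HCT116 for the members below, by the interaction test of edgeR with Benjamini-Hochberg adjustment. All differences are log2 values, A549 minus HCT116.

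For the MSTRG.4401.1 KO, the difference was 4.36 for SLC2A3, 4.43 for CA9, 1.69 for PFKFB4, 1.53 for DDIT4, 1.43 for ANGPTL4, 1.15 for ALDOC, 1.10 for EPAS1 and 1.00 for EGLN3, and it was -1.03 for CA12 and -2.44 for SLC16A3. PFKFB4 rested on 38, 144 and 183 counts in the A549 KO, and its call was lost in 10 of 12 fits leaving out a library. That of EGLN3 was lost in 7 of 12, that of CA12 in 3 and that of EPAS1 in 1 (without A549 WT B S22).

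For the MSTRG.2513.6 KO, the difference was -7.18 for CA12, -2.93 for CA9, -2.22 for SLC2A3 and -2.09 for EPAS1. These rest in part on S8 and S9, which resemble A549 libraries. Without them, with S11 as the single HCT116 KO library, the differences were -1.83, -2.95, -1.76 and -0.45 in the same order. Leaving out single libraries with S8 and S9 kept, the call of EPAS1 was lost in 11 of 12 fits, that of CA9 in 5 and that of CA12 in 1 (without A549 MSTRG.2513.6 KO S18), and that of SLC2A3 in 0.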

How the results depend on the processing

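Of 870 values of named members under an alternative, 776 kept their direction and their side of the threshold, 63 lost a call, 21 gained one and 10 changed sign. Of 118 counts of called members, 91 stayed within 1.5 times the reported count. The causes of the other changes were not tested, except where fewer libraries or a dropped threshold made them.

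Without the fold threshold, 7 members passed in the A549 MSTRG.2513.6 KO, 22 in the A549 MSTRG.4401.1 KO, 24 in the HCT116 MSTRG.4401.1 KO, 1 in the HCT116 MSTRG.34636.7 KO, 7 between WT A and WT B, 35 between the lines and 21 in the MSTRG.4401.1 interaction. In the HCT116 MSTRG.2513.6 KO the count of 0 became 6 with DESeq2, 1 with upper-quartile scaling, 6 without S8 and S9, and 0 to 18 over the fits leaving out a library (18 without S11). In the HCT116 MSTRG.34636.7 KO it became 7 with WT B as control, and 0 to 1 when a library was left out (1 without WT A 1A). Between WT A and WT B it was 1 at FDR < 0.05, 1 with upper-quartile scaling and 1 without a filter, and 0 to 3 when a library was left out. In the A549 MSTRG.4401.1 KO it was 3 to 6 (6 without S23), and in the MSTRG.2513.6 interaction 1 to 18 (18 without S11).

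HIF1A changed sign in the A549 MSTRG.2513.6 KO without S19, with a range of -0.35 to 0.11. In the HCT116 MSTRG.2513.6 KO, HIF1A was -0.16 and LDHA -1.09 without S8 and S9, and SLC2A1 was 0.30 with WT A as control. LDHA was 0.57 in the HCT116 MSTRG.4401.1 KO with WT A as control, where CA9 failed the filter on low counts and has no value. In the HCT116 MSTRG.34636.7 KO with WT B as control, HIF1A was 0.055 and LDHA -0.87, and leaving out a library gave EPAS1 -0.21 to 0.30 and LDHA -0.18 to 0.30.

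Libraries with the same replicate number in the labels were not treated as pairs in the main fits. Their correlations were small, between 0.0114 and 0.0360 for the MSTRG.34636.7 KO and WT A, and between -0.0109 and 0.0166 for WT A and WT B. In the former each library correlated best with its own number, which is a hint from the data only. With the number as a replicate block, 0 members were called in the MSTRG.34636.7 KO and 2 between the wild types in place of 0 and 2 called without it; SLC2A3 no longer passed the adjusted p in the former (0.171), ADM was -1.32, and NDRG1, at 0.98, fell just below the fold threshold.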
